A study of Mus musculus with 12 samples.

Results

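The 8 genes described here encode the machinery with which a mouse cell detects foreign or misplaced nucleic acids in its cytosol and endosomes. They are the RIG-I-like receptors Ddx58, Ifih1 and Dhx58, the Z-form nucleic acid sensor Zbp1, the RNA-activated kinase Eif2ak2, the endosomal receptor Tlr3, the adaptor Mavs and the RNA-editing enzyme Adar. They were chosen by symbol, and each of the 8 symbols matched 1 of the 21936 genes in the deposited table. All 8 stood above 1 FPKM (fragments per kilobase of merged exon, scaled to the depth of the library) in all 12 libraries, so none was lost to the filter on low values.

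RNA was sequenced from eyelid tissue of male C57BL/6 mice that ate either a high-fat diet (60 kcal% fat) or a standard-fat control diet (10 kcal% fat), and tissue was taken at 9h, 15h or 21h. Each of the 6 combinations of diet and time had 2 libraries. All mice were 6 to 8 weeks old at the start, lived under 12 h of light a day and had 1 week of adaptation. The labels give a diet of 3 months where the series text gives 4, and they name the meibomian gland, which secretes lipid at the lid margin, where that text has both eyelids removed whole. As neither source tells a single animal from pooled animals, a p-value here measures only the spread between libraries, which may be technical.

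Double-stranded RNA is rare in a healthy cytosol and common during viral infection, and the RIG-I-like receptors bind it and signal through MAVS on the mitochondrial surface to switch on type I interferon. TLR3 senses double-stranded RNA inside endosomes through a different adaptor, PKR (the product of Eif2ak2) stops translation once it has bound it, and ADAR1 edits adenosines in the cell's own duplexes so that they escape detection. Several of these genes are themselves induced by interferon, which closes a feed-forward loop, and the lid margin and conjunctiva are barrier tissues exposed to viruses.

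The promoter windows below run from 250 bases before to 50 bases after the annotated start, on the strand of the gene, and come from RefSeq on GRCm38.p6. They are shown for the 3 sensor genes that hold the core of an interferon-stimulated response element near their start, and for the adaptor gene. Mavs holds no core, and neither do Tlr3 and Adar, whose windows are not shown. A link between these motifs and the diet difference was not tested. Capitals mark the matches to that core (GAAA, any 2 bases, GAAA) and to the shorter IRF element (AANNGAAA) on either strand, and every match to the core contains a match to the IRF element.
Ifih1: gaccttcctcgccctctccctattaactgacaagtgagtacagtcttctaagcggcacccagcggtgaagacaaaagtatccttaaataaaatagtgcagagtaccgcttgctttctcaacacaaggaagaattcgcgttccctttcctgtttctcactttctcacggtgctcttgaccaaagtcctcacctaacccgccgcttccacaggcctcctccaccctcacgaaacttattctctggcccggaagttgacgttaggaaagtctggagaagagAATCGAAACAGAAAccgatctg
Ddx58: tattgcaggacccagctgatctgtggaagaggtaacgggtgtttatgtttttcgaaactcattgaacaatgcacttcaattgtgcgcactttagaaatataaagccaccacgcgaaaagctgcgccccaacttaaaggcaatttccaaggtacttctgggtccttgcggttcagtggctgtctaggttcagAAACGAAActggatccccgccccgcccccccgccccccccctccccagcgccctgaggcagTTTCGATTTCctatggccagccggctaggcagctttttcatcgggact
Eif2ak2: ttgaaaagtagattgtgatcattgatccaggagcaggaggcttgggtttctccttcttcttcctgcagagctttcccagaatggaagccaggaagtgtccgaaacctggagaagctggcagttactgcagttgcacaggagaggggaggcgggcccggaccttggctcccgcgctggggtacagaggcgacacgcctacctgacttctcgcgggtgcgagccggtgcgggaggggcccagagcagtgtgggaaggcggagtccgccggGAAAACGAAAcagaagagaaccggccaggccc
Mavs: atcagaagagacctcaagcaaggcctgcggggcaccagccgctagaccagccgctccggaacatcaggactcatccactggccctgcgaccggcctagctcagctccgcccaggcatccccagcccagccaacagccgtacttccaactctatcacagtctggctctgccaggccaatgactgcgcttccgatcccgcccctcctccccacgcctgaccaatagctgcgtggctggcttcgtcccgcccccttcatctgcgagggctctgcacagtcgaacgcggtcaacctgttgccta
These windows are chr2:62646206-62646505 (minus strand) for Ifih1, chr4:40239776-40240075 (minus strand) for Ddx58, chr17:78882523-78882822 (minus strand) for Eif2ak2 and chr2:131233813-131234112 (plus strand) for Mavs. The table held a window for 6 of the 8 genes, Dhx58 and Zbp1 not among them. With the first transcribed base as position 1, the core read GAAACAGAAA at 33 to 42 in Ifih1 and GAAAACGAAA at 19 to 28 in Eif2ak2, and TTTCGATTTC, its reverse strand form, at 3 to 12 in Ddx58. Tlr3 held only an IRF element, TTTCACTT, from -59 to -52, and Adar held an IRF element, AAACGAAA, at 30 to 37 from the third of its 3 annotated starts. Counted by window, since Adar has 3, the core was in 3 of the 8 windows of these 6 genes and an IRF element in 5 of 8, where 3.443% and 23.92% of all 32851 promoter windows held them. The gamma-activated site (TTCNNNGAA) occurred in Eif2ak2 and, at the third start, in Adar, and in 8.298% of all windows. A match describes the letters of the window and is not a binding site.

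Recovered depth was 14079167 to 17867452 reads per library, at which a single read on an exon length of 2 kb gives 0.0279 to 0.0355 FPKM. The members rested on 55 to 1319 reads per library, the fewest for Dhx58. The first principal component of all tested genes held 29.1% of the variance, and on it 3 libraries at 9h, replicate 7 of the high-fat mice and both controls, stood apart from the other 9. Fatty-acid and wax-ester genes of meibocytes, the secretory cells of the gland, were abundant everywhere, with summed levels of the 12 markers of 7390 to 11639 FPKM in high-fat and 6793 to 9968 FPKM in control libraries. Markers of skeletal muscle (2499 to 6965 FPKM in high-fat and 2584 to 6468 FPKM in control libraries) and of keratinocytes and conjunctiva were present too.

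Most of the sensor genes were expressed at lower levels in high-fat mice than in controls, and this held at all 3 times. Averaged over the times, 6 of the 8 passed the test and all 6 were lower, where 1.98% of the 13228 genes tested passed in either direction and 1.78% passed as lower. Unadjusted, all 8 were under 0.05, against 14.1% of all genes. Zbp1 stood farthest apart, Dhx58 and Ifih1 came next, and Tlr3 and Mavs did not pass. The median log2 fold change was -0.71 over the 8 members and -0.01 over all genes tested. Here and below the test is limma on log2(FPKM + 1) with a mean for each of the 6 groups, p-values are adjusted over all genes tested, an adjusted p under 0.05 counts as passing, and fold changes are high-fat over control on that log2 scale, which understates the change of low genes. In whole tissue, fewer cells of a type and less RNA per cell cannot be told apart.

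**Figure D1:**
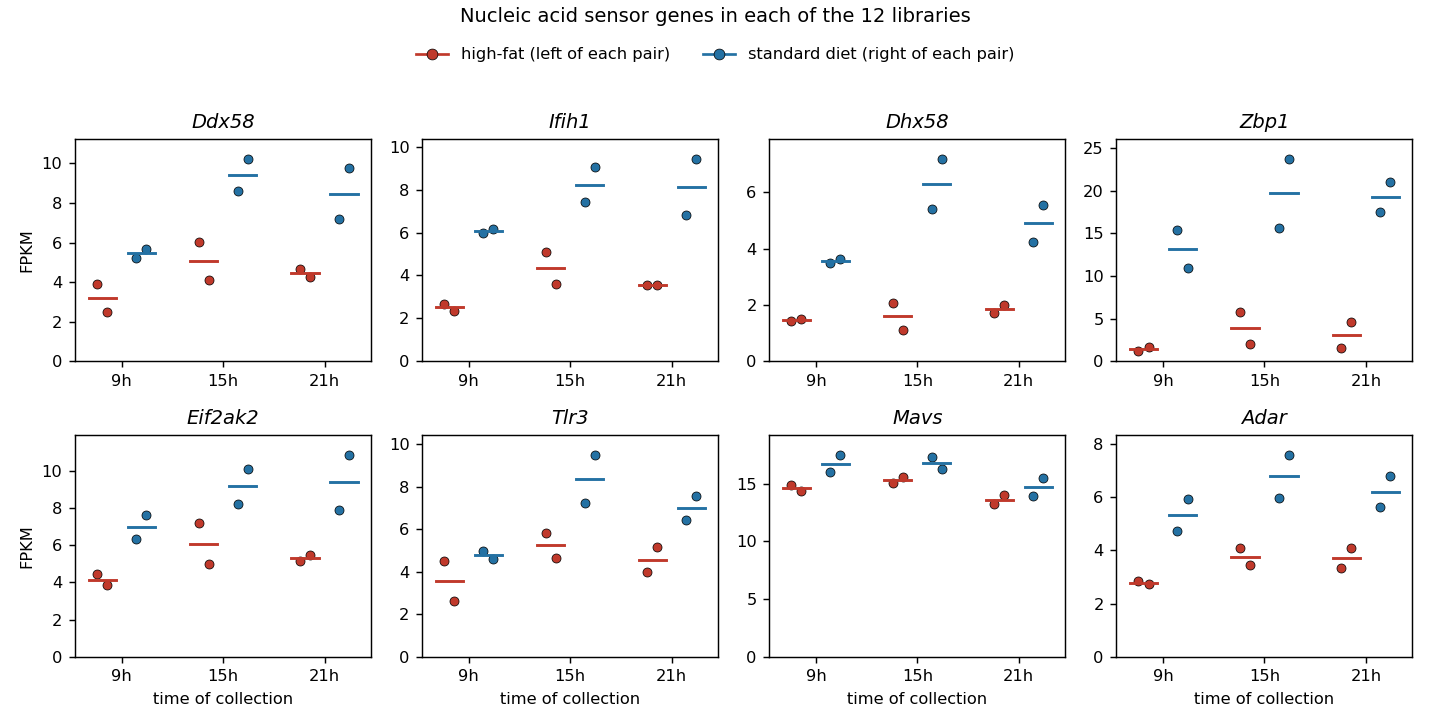
FPKM (vertical axis, from 0, a separate scale for each gene) of the 8 genes at each time of collection (horizontal axis), with each point 1 library, high-fat left and control right, and bars at the mean of 2 libraries. Both high-fat points lie below both control points at all 3 times for every gene except Mavs.

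Among the RIG-I-like receptors, the founding member Ddx58 encodes RIG-I, a helicase that binds short RNA ends carrying a triphosphate (ENSMUSG00000040296, GRCm38 chr4:40203773-40239828, minus strand). At 9h it measured 3.93 and 2.50 FPKM in high-fat and 5.25 and 5.68 FPKM in control libraries, at 15h 6.01 and 4.13 FPKM in high-fat and 8.61 and 10.2 FPKM in control libraries, and at 21h 4.66 and 4.24 FPKM in high-fat and 7.17 and 9.77 FPKM in control libraries. High-fat libraries were below controls within each time, but the highest high-fat library, at 15h, was above both controls at 9h. Over all times Ddx58 averaged 4.24 ± 1.13 FPKM in high-fat and 7.78 ± 2.09 FPKM in control mice (SD, n = 6 each), or 54.6% of the control level. Its log2 fold change was -0.74 ± 0.12 (SE, limma adjusted p 0.0146).

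Ifih1 encodes MDA5, which binds long double-stranded RNA (ENSMUSG00000026896, chr2:62595798-62646255, minus strand). Its levels were 2.67 and 2.36 FPKM in high-fat and 5.97 and 6.15 FPKM in control libraries at 9h, 5.11 and 3.59 FPKM in high-fat and 7.40 and 9.06 FPKM in control libraries at 15h, and 3.55 and 3.56 FPKM in high-fat and 6.83 and 9.41 FPKM in control libraries at 21h. Every high-fat library was below every control library. The means were 3.47 ± 0.960 FPKM in high-fat and 7.47 ± 1.46 FPKM in control mice (SD, n = 6 each), and the log2 fold change was -0.93 ± 0.10 (SE, limma adjusted p 0.00310). Dhx58 encodes LGP2, a relative without signalling domains that modulates both other receptors (ENSMUSG00000017830, chr11:100694884-100704271, minus strand). It measured 1.42 and 1.50 FPKM in high-fat and 3.51 and 3.64 FPKM in control libraries at 9h, 2.07 and 1.13 FPKM in high-fat and 5.41 and 7.17 FPKM in control libraries at 15h, and 1.71 and 2.003 FPKM in high-fat and 4.25 and 5.57 FPKM in control libraries at 21h. No high-fat library reached the lowest control. Dhx58 averaged 1.64 ± 0.362 FPKM in high-fat and 4.92 ± 1.40 FPKM in control mice (SD, n = 6 each), 33.3% of the control level, with a log2 fold change of -1.15 ± 0.11 (SE, limma adjusted p 0.00200).

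Zbp1 encodes a sensor of left-handed (Z-form) RNA and DNA that can start necroptosis, an inflammatory form of cell death (ENSMUSG00000027514, chr2:173206612-173218923, minus strand). At 9h its levels were 1.25 and 1.67 FPKM in high-fat against 15.4 and 10.9 FPKM in control libraries, at 15h 5.79 and 2.07 FPKM in high-fat against 15.7 and 23.6 FPKM in control libraries, and at 21h 1.59 and 4.58 FPKM in high-fat against 17.5 and 21.0 FPKM in control libraries. The highest high-fat library was below the lowest control, and the high-fat libraries were uneven among themselves. Zbp1 averaged 2.82 ± 1.89 FPKM in high-fat and 17.3 ± 4.50 FPKM in control mice (SD, n = 6 each), so that controls were 6.14-fold higher, and the coefficient of variation was 66.8% in high-fat and 26.0% in control libraries. The log2 fold change of -2.36 ± 0.24 (SE, limma adjusted p 0.00271) was the 8th lowest of the 13228 genes tested.

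Eif2ak2 encodes PKR, the kinase that phosphorylates eIF2-alpha on binding double-stranded RNA (ENSMUSG00000024079, chr17:78852564-78882573, minus strand). Its levels were 4.44 and 3.83 FPKM in high-fat and 6.32 and 7.63 FPKM in control libraries at 9h, 7.21 and 4.96 FPKM in high-fat and 8.23 and 10.1 FPKM in control libraries at 15h, and 5.13 and 5.49 FPKM in high-fat and 7.91 and 10.8 FPKM in control libraries at 21h. Only the highest high-fat library, at 15h, exceeded the lowest control, at 9h. Eif2ak2 averaged 5.18 ± 1.15 FPKM in high-fat and 8.51 ± 1.67 FPKM in control mice (SD, n = 6 each), with a log2 fold change of -0.62 ± 0.11 (SE, limma adjusted p 0.0231). Adar encodes the double-stranded RNA adenosine deaminase ADAR1 (ENSMUSG00000027951, chr3:89715022-89753446, plus strand). It measured 2.83 and 2.74 FPKM in high-fat and 4.74 and 5.94 FPKM in control libraries at 9h, 4.08 and 3.43 FPKM in high-fat and 5.97 and 7.58 FPKM in control libraries at 15h, and 3.35 and 4.09 FPKM in high-fat and 5.62 and 6.79 FPKM in control libraries at 21h. All high-fat libraries lay below all controls. The means were 3.42 ± 0.584 FPKM in high-fat and 6.11 ± 0.981 FPKM in control mice (SD, n = 6 each), and the log2 fold change was -0.68 ± 0.09 (SE, limma adjusted p 0.00483).

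Tlr3, the only endosomal receptor among the 8 (ENSMUSG00000031639, chr8:45395665-45411080, minus strand), measured 4.53 and 2.65 FPKM in high-fat and 4.96 and 4.61 FPKM in control libraries at 9h, 5.83 and 4.64 FPKM in high-fat and 7.24 and 9.49 FPKM in control libraries at 15h, and 3.96 and 5.14 FPKM in high-fat and 6.41 and 7.58 FPKM in control libraries at 21h. High-fat libraries were below controls within each time, narrowly so at 9h, while the groups overlapped across times. Its means were 4.46 ± 1.09 FPKM in high-fat and 6.71 ± 1.81 FPKM in control mice (SD, n = 6 each), and its log2 fold change of -0.49 ± 0.12 (SE) had an unadjusted p of 0.00291 and missed the threshold (limma adjusted p 0.0961). Mavs, the adaptor of the RIG-I-like receptors (ENSMUSG00000037523, chr2:131234063-131248025, plus strand), measured 14.9 and 14.3 FPKM in high-fat and 16.0 and 17.5 FPKM in control libraries at 9h, 15.0 and 15.6 FPKM in high-fat and 17.3 and 16.3 FPKM in control libraries at 15h, and 13.3 and 13.99 FPKM in high-fat and 13.9 and 15.5 FPKM in control libraries at 21h. The groups overlapped at 21h and across times. Mavs averaged 14.5 ± 0.835 FPKM in high-fat and 16.1 ± 1.302 FPKM in control mice (SD, n = 6 each), 90.2% of the control level. Its log2 fold change was -0.14 ± 0.05 (SE, limma adjusted p 0.292), and the 95% interval ran from -0.26 to -0.02.

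**Figure D2:**
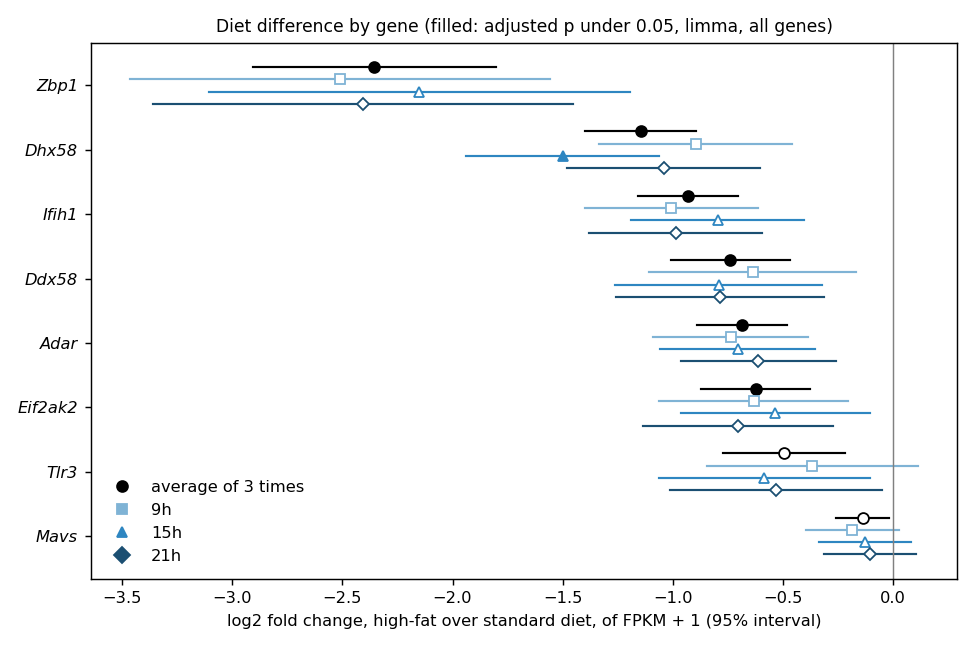
Log2 fold change of FPKM + 1, high-fat over control (horizontal axis), for each gene, averaged over the 3 times and at each time, with bars for the 95% interval and filled symbols for an adjusted p under 0.05. The averages run from -2.36 for Zbp1 to -0.14 for Mavs, and the intervals of the 3 times overlap within each gene.

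All 6 high-fat libraries were below all 6 controls for Ifih1, Dhx58, Zbp1 and Adar, that is 4 of 8 members, where 1.86% of all genes tested showed this. Both high-fat libraries were below both controls at each of the 3 times for 7 of 8, all but Mavs, where 3.54% of all genes did. The calls of Ifih1, Dhx58, Zbp1 and Adar held when any 1 library was left out, with limma adjusted p up to 0.0171, 0.0140, 0.0171 and 0.0221. The call of Ddx58 was lost without replicate 2 of the controls at 9h (0.0501) or replicate 3 of the controls at 15h (0.0641). Eif2ak2 lost its call without any 1 of 7 libraries, these being replicate 7 at 9h and replicates 3 and 6 at 21h in high-fat mice, and replicates 2 and 3 at 9h, 3 at 15h and 2 at 21h in controls, with an adjusted p of 0.0501 to 0.0893. Without replicate 6 of the high-fat mice at 9h, Tlr3 passed (0.0294). With a whole time left out, an alternative chosen after seeing the data, Dhx58 and Zbp1 kept their calls whichever time it was. Ifih1 lost its call without 9h (0.0513), Adar lost its call without 9h (0.0584) or without 21h (0.0547), and Ddx58 and Eif2ak2 lost theirs whichever of the 3 times was left out.

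Reads could be shared where genes overlap, since the strand setting of the counting is not given in the sources used here. Dhx58 overlaps the antisense gene Dhx58os, Tlr3 overlaps the antisense gene Gm45542, Eif2ak2 overlaps n-R5s29 and Gm26637 on the other strand, and Adar overlaps Chrnb2 on the other strand. Ddx58, Ifih1, Zbp1 and Mavs overlap no annotated gene.

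The size of the difference is set side by side for the 3 times, since the design asks whether the diet difference depended on the time of day. High-fat mice had 11.1% to 20.0% of the control level of Zbp1, 25.5% to 40.8% of Dhx58, 41.5% to 52.9% of Ifih1 and 52.5% to 58.9% of Ddx58 across the 3 times. For Adar the range was 52.2% to 59.9%, for Eif2ak2 56.7% to 66.4%, for Tlr3 62.6% to 74.9% and for Mavs 87.3% to 92.5%. On the log2(FPKM + 1) scale Dhx58 had a fold change of -0.90 at 9h, -1.50 at 15h and -1.04 at 21h. The interaction of diet and time passed for 0 of 8 members and for 0 genes in all by limma (smallest unadjusted p among members 0.124 for Dhx58, 0 members and 3.06% of all genes under 0.05 unadjusted). With 2 libraries a group this does not show that the differences were equal.

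Within single times few genes passed at all. At 15h Dhx58 passed (log2 fold change -1.50 ± 0.19 SE, limma adjusted p 0.0443), 1 of 8 members where 0.0605% of all genes passed, and 7 members were under 0.05 unadjusted, against 11.6% of all genes. That call was lost whenever any library other than replicate 2 of the high-fat mice at 15h was left out, with an adjusted p of up to 0.574. Without that library, Zbp1 passed at 15h as well (0.0328). At 9h limma passed 0 members and 0% of all genes, with 6 members and 7.22% of all genes under 0.05 unadjusted and a smallest adjusted p of 0.132 among members, for Ifih1 and Zbp1. At 21h it passed 0 members and 0.00756% of all genes, with 7 members and 5.37% of all genes under 0.05 unadjusted. All 8 members had a negative fold change at each time. Zbp1 passed at 9h and at 21h when either high-fat library at 15h was left out (0.0467 to 0.0484).

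Across the 3 times most of the sensors had their lowest mean at 9h. The share of all genes lowest at 9h was not computed. In each diet the mean was lowest at 9h for 7 of 8 members and highest at 15h for 7 of 8, the exceptions being Mavs, lowest at 21h in both diets, Dhx58 in high-fat mice and Eif2ak2 in controls, both highest at 21h. Ddx58, for example, averaged 3.21 ± 1.01, 5.07 ± 1.33 and 4.45 ± 0.297 FPKM at 9h, 15h and 21h in high-fat mice, and 5.46 ± 0.306, 9.41 ± 1.13 and 8.47 ± 1.84 FPKM in controls (SD, n = 2 each). Averaged over diets, its log2 difference of 15h minus 9h was 0.61 ± 0.15 (SE), that of Tlr3 was 0.58 ± 0.15, that of Ifih1 0.49 ± 0.12 and that of Mavs 0.04 ± 0.07. By limma the difference of 15h minus 9h passed for 0 of 8 members (adjusted p 0.0883 to 0.775), with 7 under 0.05 unadjusted. The share of all genes under 0.05 for this difference was not computed. The F test of the 3 times by limma passed 0 of 8 members (adjusted p 0.0955 to 0.276), where 1.46% of all genes passed. In that F test 5 members were under 0.05 unadjusted, against 23.6% of all genes. Leaving out replicate 6 of the high-fat mice at 9h made Ddx58 (0.0239) and Tlr3 (0.0191) pass. Within controls alone 0 members passed and 3 were under 0.05 unadjusted, where 0.0227% of all genes passed and 18.3% were under 0.05 unadjusted, and within high-fat mice 0 passed and 1 was under 0.05 unadjusted, where 0% and 8.73% of all genes did so.

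The order of levels among the 8 genes differed between the diets. FPKM is per merged exon length, from 3272 bases for Dhx58 to 8165 bases for Ifih1, which may exceed the length of the transcripts expressed. Levels of different genes thus compare only roughly. In high-fat mice the order by mean FPKM was Mavs, Eif2ak2, Tlr3, Ddx58, Ifih1, Adar, Zbp1 and Dhx58. Of these neighbours, Tlr3 and Ddx58, Ifih1 and Adar, Adar and Zbp1, and Zbp1 and Dhx58 did not differ beyond the spread of their ratio, that is by a mean log2 ratio above its SD over the libraries. In controls Zbp1 came first and did not differ beyond that spread from Mavs, then came Eif2ak2, Ddx58, Ifih1, Tlr3 and Adar, whose neighbours among these 5 did not differ beyond it either, and Dhx58 was lowest, beyond it below Adar. Zbp1 thus stood at 2.82 FPKM beside 14.5 FPKM of Mavs in high-fat mice, and at 17.3 FPKM beside 16.1 FPKM of Mavs in controls.

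**Figure D3:**
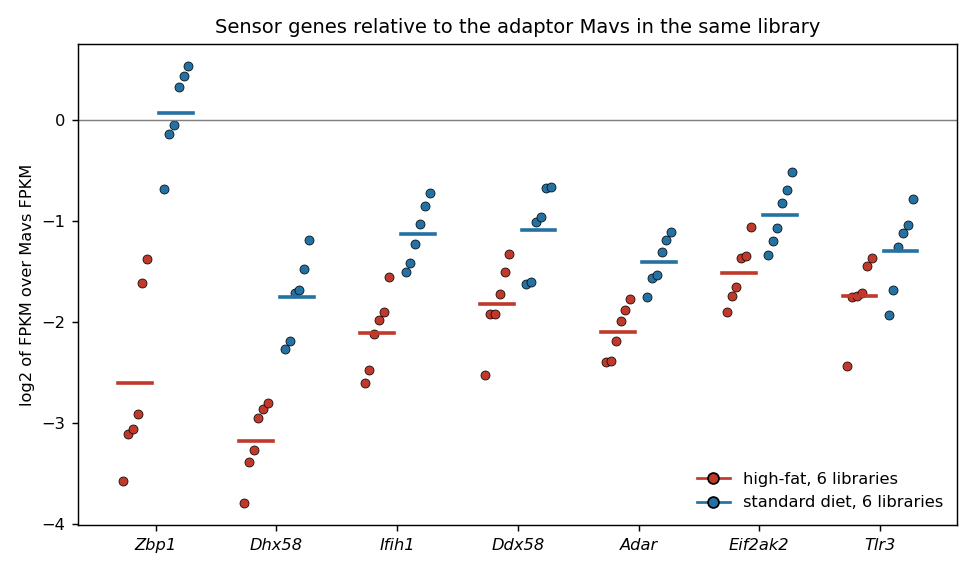
Log2 of the FPKM of each gene over the FPKM of Mavs in the same library (vertical axis), with each point 1 of 6 libraries, high-fat left and control right, and bars at the means. High-fat points lie below all control points for Zbp1, Dhx58, Ifih1 and Adar, and overlap them for Ddx58, Eif2ak2 and Tlr3.

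Ratios between 2 members within a library do not depend on how libraries are scaled, and they tested whether the members differed unequally between diets. The log2 ratio of Zbp1 to Mavs was -2.61 ± 0.893 in high-fat and 0.07 ± 0.457 in control libraries (SD, n = 6 each, exact permutation p 0.00926). That of Dhx58 to Mavs was -3.18 ± 0.379 in high-fat and -1.75 ± 0.413 in control libraries, and that of Ifih1 to Mavs was -2.11 ± 0.387 in high-fat and -1.13 ± 0.314 in control libraries, at the same exact p. Over all 28 pairs, 17 reached 0.00926, the smallest two-sided p that the 216 permutations of diet labels within times can give, and 22 had an adjusted p under 0.05 over the 28 pairs. Zbp1 differed from each of the other 7 in this way, by a log2 ratio that was lower in high-fat libraries by 1.25 (against Dhx58) to 2.67 (against Mavs). The 28 pairs share their genes and libraries, so the counts of 17 and 22 do not stand for independent differences. The members were chosen with earlier results of these data known, and an adjusted p over the 28 pairs refers to these members only. The share of other gene pairs that reach such values was not computed.

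Among the receptors themselves the ratio of Ddx58 to Dhx58 was 1.36 ± 0.393 in high-fat and 0.66 ± 0.111 in control libraries on the log2 scale (SD, n = 6 each), a difference of 0.70 (exact permutation p 0.00926, adjusted 0.0153). The ratio of Ddx58 to Ifih1 differed by 0.25 (exact permutation p 0.0185, adjusted 0.0273), and that of Ifih1 to Dhx58 by 0.44 (exact p 0.0463, adjusted 0.0540), which missed the threshold. Eif2ak2 over Adar differed by 0.12 (exact p 0.167) and Ddx58 over Adar by -0.04 (exact p 0.778), and neither passed.

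Across the 12 libraries the members other than Mavs went up and down together, described here without a test since all share the diet difference. Pearson's r of log2(FPKM + 1) was 0.80 to 0.98 over the 21 pairs without Mavs, with a median of 0.94. After the mean of each diet and time was taken out it was 0.31 to 0.95, with a median of 0.68. For the 7 pairs with Mavs it was 0.41 to 0.57, and -0.13 to 0.41 after the means were taken out. With 2 libraries a group the 2 deviations mirror each other. Each r taken after the means were removed thus rests on 1 value per group, 6 in all. By library, replicate 2 of the high-fat mice at 15h was the highest high-fat library for 6 of 8 members, replicate 7 at 9h was the lowest of all 12 for 5, and replicate 3 of the controls at 15h was the highest of all 12 for 5.

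The genes most like each member over the 12 libraries, by Pearson's r, were Gbp2 (0.994), Irgm2 (0.986) and Oasl2 (0.985) for Zbp1, Trim12a (0.988), Rnf213 (0.988) and Stat2 (0.978) for Ddx58, and Ifi44 (0.987), Ifi27l2a (0.983) and Oas1g (0.982) for Dhx58. Ifih1 was closest to Parp14 (0.983), Phf11d (0.982) and Eif2ak2 (0.980), and Eif2ak2 to Ifih1 (0.980), Phf11d (0.978) and Irf9 (0.976). Adar was closest to Oasl2 (0.983), Ifih1 (0.971) and Herc6 (0.970), and Tlr3 to Samd9l (0.973), Trim12a (0.963) and Casp1 (0.959). Mavs had lower values and other neighbours, Ccnb2 (0.890), Tmem184b (0.882) and Anln (0.879). These neighbours were picked as the highest r among the 13228 genes tested, over 12 libraries. How high the top values would be by chance was not computed, and genes that share the diet difference correlate through it.

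The other genes of the same pathways were read from 7 lists with 94 tested genes, of which 11 were lower in high-fat mice, 0 were higher and 71 had a negative value. That is 11.7% lower, where 1.78% of all genes tested were, and the median log2 fold change over the 94 was -0.11. Among 22 signalling partners of the RIG-I-like receptors 2 fell: Irf7, the transcription factor that amplifies type I interferon, and Trim25, the ubiquitin ligase that activates RIG-I. Irf7 averaged 5.23 ± 1.68 FPKM in high-fat and 21.4 ± 3.94 FPKM in control mice (SD, n = 6 each), with a log2 fold change of -1.87 ± 0.17 (SE, limma adjusted p 0.00183). Trim25 averaged 13.1 ± 1.81 FPKM in high-fat and 18.4 ± 1.57 FPKM in control mice, with a log2 fold change of -0.47 ± 0.08 (adjusted p 0.0162). Next came Zc3hav1, a CpG-RNA-binding antiviral protein, with -0.27 (adjusted p 0.0613). The median of the list was -0.08, and the kinase gene Tbk1 (-0.06 ± 0.11) and the transcription factor gene Irf3 (0.01 ± 0.15), which act directly below MAVS, were near 0.

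Of 11 tested genes of the other endosomal Toll-like receptors and their partners 0 passed by limma and 4 were under 0.05 unadjusted, with a median of -0.12. The lowest p belonged to Unc93b1, the chaperone that carries these receptors to endosomes (-0.53 ± 0.14, adjusted p 0.104, but 0.0443 without replicate 6 of the high-fat mice at 15h), followed by the chaperones Hsp90b1 (-0.30) and Cnpy3 (-0.22). Ticam1, the adaptor of TLR3, was at -0.12 ± 0.06. Of 15 tested genes of cytosolic DNA sensing 3 fell, with a median of -0.38. Samhd1, a nucleotide triphosphohydrolase that restricts retroviruses, averaged 11.1 ± 1.71 FPKM in high-fat and 26.4 ± 5.21 FPKM in control mice (log2 fold change -1.17 ± 0.11, adjusted p 0.00200). The AIM2-like receptor genes Ifi204 (-0.75 ± 0.11, adjusted p 0.00654) and Ifi203 (-0.89 ± 0.16, adjusted p 0.0250) fell too. The DNA sensor gene Cgas (-0.32 ± 0.10, adjusted p 0.178) and its adaptor Sting1 (-0.76 ± 0.20, adjusted p 0.109), both named after their values were seen, did not pass, and Trex1 is listed at 0 in all libraries.

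Downstream partners of ZBP1 and PKR gave 0 calls by limma with all libraries. Of 6 cell death partners of ZBP1, with 2 under 0.05 unadjusted and a median of -0.19, the necroptosis effector Mlkl (-0.57 ± 0.12, adjusted p 0.0513) and the kinase gene Ripk3 (-0.39 ± 0.13, adjusted p 0.210) had the smallest p, followed by Casp6 (-0.15). Mlkl passed without replicate 3 of the controls at 9h or replicate 6 of the high-fat mice at 21h (adjusted p down to 0.0307) and in an additive model of diet and time. Of 15 genes of PKR and the integrated stress response 1 was under 0.05 unadjusted and the median was -0.04, with Dnajc3, a PKR inhibitor, at -0.13 ± 0.05 (adjusted p 0.311) and the eIF2-alpha phosphatase subunit Ppp1r15b at -0.12 (adjusted p 0.465). The stress factor Atf3 was at 44.2 FPKM in replicate 6 of the high-fat mice at 15h and 46.8 FPKM in replicate 6 at 21h, and at 5.73 to 12.7 FPKM in the other libraries, which gave a log2 fold change of 0.72 ± 0.51 (adjusted p 0.577). Of 10 tested genes of RNA editing and double-stranded RNA binding 0 passed by limma and 0 were under 0.05 unadjusted. Their median was 0.06, with Strbp at 0.15, Stau2 at 0.12 and Adarb1, the other active editing enzyme, at 0.11 ± 0.07.

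Among 15 tested genes of interferons, their receptors and signalling 6 fell, with a median of -0.27. Among them were the transcription factors Stat2 (-1.16 ± 0.15), Irf9 (-1.13 ± 0.19) and Irf1 (-1.05 ± 0.15) and the feedback inhibitors Usp18 (-1.55 ± 0.18) and Socs1 (-0.77 ± 0.11), with limma adjusted p of 0.00354 to 0.0160. Stat2 averaged 6.76 ± 2.22 FPKM in high-fat and 16.5 ± 5.33 FPKM in control mice (SD, n = 6 each). The receptor genes Ifnar1 (-0.11 ± 0.08) and Ifnar2 (-0.27 ± 0.12) for type I interferon and Ifngr1 (-0.14 ± 0.15) and Ifngr2 (-0.34 ± 0.14) for interferon gamma did not pass. The interferon genes Ifnb1, Ifna4, Ifng, Ifnl2 and Ifnl3 were below the filter. Of these Ifng lay at 0 to 0.151 FPKM in high-fat and 0.0455 to 0.882 FPKM in control libraries, and Ifna4 is listed at 0 in all libraries. Ifnl2, Ifnl3 and Ifnb1 were at 0 in all high-fat libraries. In control libraries they lay at 0 to 0.876, 0 to 0.978 and 0 to 0.0745 FPKM. The call was lost without 1 library for Trim25 (adjusted p up to 0.0684), Ifi203 (up to 0.0989) and Irf9 (up to 0.0671), for each of them without replicate 2 of the controls at 9h, replicate 3 of the controls at 15h or replicate 3 of the high-fat mice at 21h, for Irf9 also without replicate 7 of the high-fat mice at 9h, and for Ifi203 also without any other library at 21h. Ifi203 also did not pass with no filter on low values. With a whole time left out, Irf7 and Samhd1 kept their calls whichever of the 3 times it was. Stat2, Usp18, Irf9 and Ifi204 lost theirs without 9h or without 21h, Socs1 and Irf1 without 15h or without 21h, and Trim25 and Ifi203 whichever it was.

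**Figure D4:**
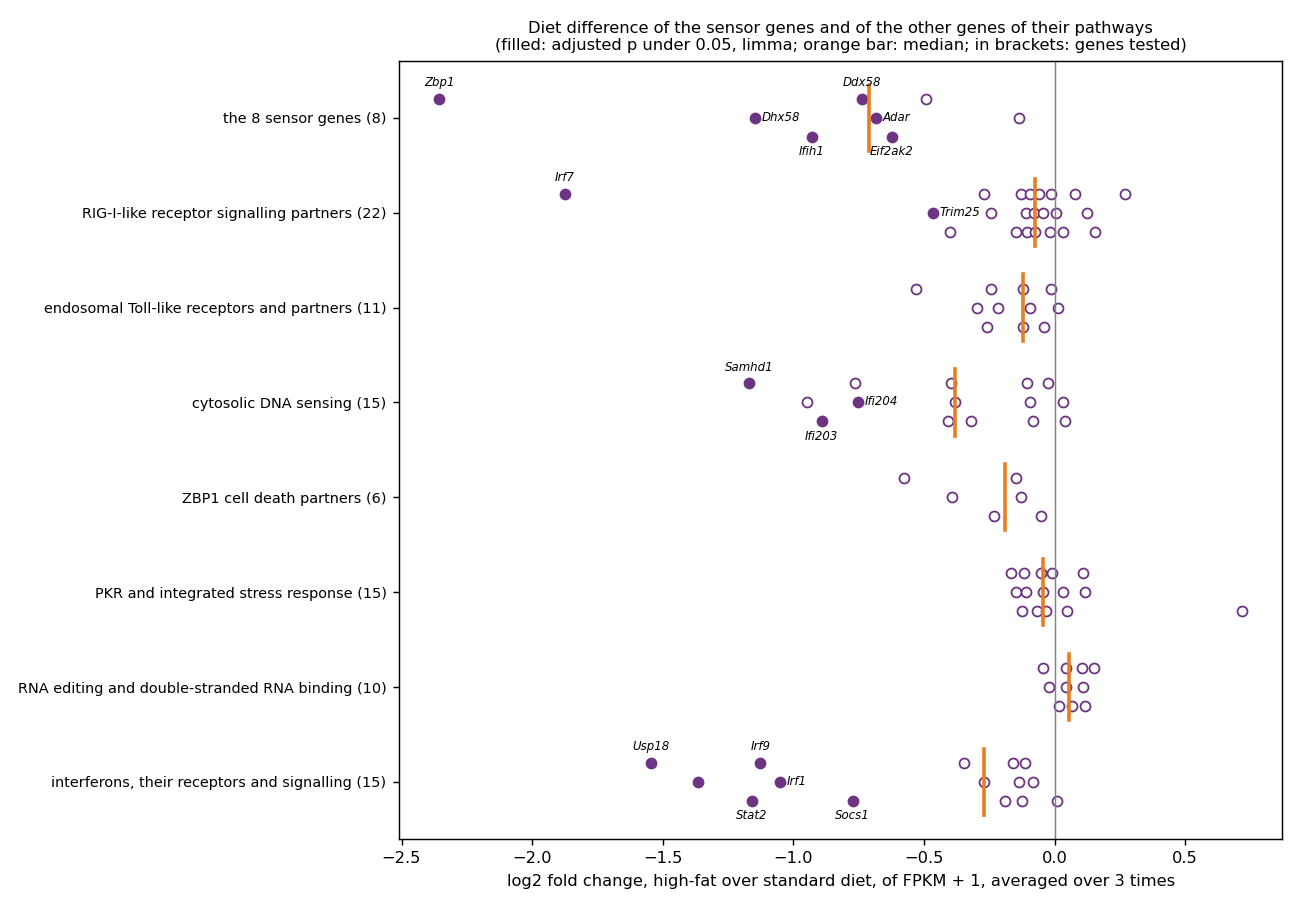
Log2 fold change of FPKM + 1, high-fat over control and averaged over the 3 times (horizontal axis), for the 8 sensor genes and the tested genes of 7 pathway lists (rows), with 1 point a gene, filled where the adjusted p is under 0.05 (named except for 1 gene), and orange bars at the medians. The medians run from -0.71 for the sensors to 0.06 for RNA editing and double-stranded RNA binding, and all filled points are negative.

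In the same contrast every tested T, natural killer and B cell marker had a negative value and an unadjusted p under 0.05 by limma. These were 9, 3 and 4 genes, where 14.1% of all genes were under 0.05 unadjusted. Some of these markers passed as lower, and 1 of the meibocyte markers rose. The summed level of 9 T cell markers was 28.6 to 39.3 FPKM in high-fat and 44.3 to 69.7 FPKM in control libraries, and 5 of the 9 fell, among them Cd8b1 (-1.79 ± 0.24) and Cd8a (-1.62 ± 0.25). For 6 natural killer cell markers the sum was 2.47 to 4.93 FPKM in high-fat and 6.96 to 17.5 FPKM in control libraries, and 1 of the 3 tested, the granzyme gene Gzmb (-1.86 ± 0.25), fell. For 5 B cell markers it was 0.907 to 2.78 FPKM in high-fat and 2.06 to 9.80 FPKM in control libraries, and 1 of the 4 tested, Cd79b (-0.84 ± 0.16), fell. The 10 macrophage markers summed to 337.6 to 1096 FPKM in high-fat and 806 to 1429 FPKM in control libraries and the 8 dendritic cell markers to 10.3 to 21.1 FPKM in high-fat and 17.3 to 27.0 FPKM in control libraries, and 0 of their 16 tested genes passed by limma, 6 being under 0.05 unadjusted. The 6 neutrophil markers summed to 28.3 to 124 FPKM in high-fat and 21.1 to 395 FPKM in control libraries, and 0 of the 4 tested passed by limma or were under 0.05 unadjusted. Of the 12 meibocyte markers, whose sums are given above, all had a positive value, with a median log2 fold change of 0.24. Among them 1 rose, the sterol acyltransferase gene Soat1, at 141 ± 24.6 FPKM in high-fat and 105 ± 11.4 FPKM in control mice (SD, n = 6 each, log2 fold change 0.42 ± 0.08, limma adjusted p 0.0408), and 4 were under 0.05 unadjusted. No marker in these lists was at 0 in all libraries. T and natural killer cell sums did not overlap between diets while the other sums did, and the part of these cells in the sensor differences was not tested. Replicate 2 of the high-fat mice at 15h, the highest high-fat library for 6 of the 8 sensor genes, had the lowest macrophage and dendritic cell sums of all 12 libraries. Replicate 7 of the high-fat mice at 9h was the lowest of all 12 for 5 sensor genes. Its macrophage sum was 682 FPKM and its dendritic cell sum 18.3 FPKM, while its T cell (28.6 FPKM) and natural killer cell (2.47 FPKM) sums were the lowest of all 12. In replicate 2 of the high-fat mice at 15h these 2 sums were 31.1 and 4.22 FPKM. Replicate 3 of the controls at 15h was the highest of all 12 for 5 sensor genes. It had the highest natural killer cell (17.5 FPKM) and dendritic cell (27.0 FPKM) sums, with 67.4 FPKM for T cells and 1336 FPKM for macrophages. Whether sensor levels and these sums are linked was not tested.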

How the data were processed

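Values are the FPKM deposited by the authors for 12 libraries. Per the submitters' processing notes HISAT2 2.0.5, HTSeq 0.9.1, DESeq 1.30.0 and the build mm9 were used. RNA was taken with Trizol and libraries made with an NEBNext kit, per the labels' protocols. How counts became FPKM, with which strand setting and annotation, is not given in the sources used here. GENCODE mouse release 21 (GRCm38) holds 21894 of the 21936 gene IDs, and with its merged exon lengths 98.2% to 98.4% of nonzero values are whole reads within 0.05 reads, so depth was recovered and coordinates are given on GRCm38. Symbols are those of the deposited table.

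On log2(FPKM + 1), limma 3.58.1 (R 4.3.3, trend prior) tested the 13228 genes that exceeded 1 FPKM in 2 or more libraries, with 6 group means and Benjamini-Hochberg adjustment over all genes. Ratios between members were tested by exact permutation of diet labels within times, two-sided, in Python 3.11.15. Both tests were checked on simulated data. The members and lists were chosen with earlier results of these data known. Named are the 8 members, in each pathway list the genes that passed (the smallest p up to 3 genes where fewer passed), and the 3 genes most correlated with each member. A gene that this rule names is withheld and not reported here. Genes outside the rule, chosen after their values were seen, are Tbk1, Irf3, Ticam1, Cgas, Sting1, Trex1, the interferon and receptor genes and the cell type markers. Alternatives were another pseudocount, other filters, median-ratio scaling, an additive model, limma-voom on recovered reads, only the libraries compared, a replicate block, and leaving out each library. Leaving out a time was added after seeing the data.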

Additional observations from a re-analysis of the deposited data

Results flagged for a closer look

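In 96 groups of 6 libraries (1 gene in 1 diet each) 3 had a library far from the others, its gap to the nearest one exceeding 0.625 of the range. Chance flags about 1 in 20 such groups. Socs1 was lowest in replicate 3 of the controls at 9h, at 2.73 FPKM beside 4.52 to 5.59 FPKM in the other controls (gap 0.687 of the range). Samd9l, the closest neighbour of Tlr3, was lowest in replicate 7 of the high-fat mice at 9h, at 11.6 FPKM beside 19.1 to 23.4 FPKM in the other high-fat libraries (gap 0.704). Tmem184b, a neighbour of Mavs, was lowest in replicate 1 of the controls at 21h, at 8.03 FPKM beside 9.45 to 9.94 FPKM in the other controls (gap 0.762). None of the 8 sensor genes was among these.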

How the results depend on the processing

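The fold change of each of the 8 sensor genes was negative in all 176 combinations of gene and alternative. For diet averaged over times 6 of the 8 members passed, and 4 to 7 of the 8 did when 1 library was left out, 6 with another pseudocount, either other filter, median-ratio scaling or limma-voom, and 7 with the additive model (Tlr3 added). Without 1 of the times 2 passed (15h and 21h only, Dhx58 and Zbp1), 3 passed (9h and 15h only, these and Ifih1) and 4 passed (9h and 21h only, these and Adar). The replicate block left 0 (6 under 0.05 unadjusted). Over all genes 262 passed, and 0 did with the replicate block, 74 with 15h and 21h only, 132 with 9h and 21h only, 49 with 9h and 15h only and 143 to 293 with 1 library left out. The sources do not say whether the numbers in the labels pair the libraries. Numbers 6 and 7 occur only in high-fat and number 1 only in control libraries, and the block fits more terms to the same 12 libraries. Its 0 calls thus cannot tell a pairing from lost power. The deviations of same-numbered libraries correlated above 0.1 in 3 of 12 pairs (-0.50 to 0.29). With 2 libraries a group the deviations mirror each other, so the 12 pairs are not independent, and this check cannot exclude a pairing or a shared batch. With the block Atf3 turned to -0.99. Of the members at 15h, 1 passed, and 0 did with a pseudocount of 0.1, with no filter, with the replicate block, with limma-voom or with only the libraries compared, and 0 to 2 with 1 library left out. At 9h 1 member, Zbp1, passed with only the libraries compared, and 0 to 1 with 1 library left out. At 21h 0 to 1 passed with 1 library left out, and for time of day averaged over diets 0 to 2. The causes were not tested. Depth limits Dhx58 most, at 55 to 371 reads per library, and intervals cover the spread between libraries only.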
